A study of Homo sapiens with 288 samples.

Results

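The genes of the vascular endothelial growth factor (VEGF) system were examined in single cells of the endothelial (EC) and the trophoblast-like (TB) type, both made from a human embryonic stem cell line. The set held 9 genes of the 17492 in the count tables, taken by gene symbol. They were the receptor tyrosine kinases KDR, FLT1 and FLT4, the co-receptors NRP1 and NRP2, and the ligands VEGFA, VEGFB, VEGFC and PGF. VEGFD was not analysed here.

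VEGF ligands are secreted dimers that bring receptor kinases together at the surface of endothelial cells, and the neuropilins bind some of the same ligands and present them to the kinases. KDR, also called VEGFR2, carries most of the growth and survival signal of VEGFA. FLT1, or VEGFR1, binds VEGFA, VEGFB and PGF, with PGF best known from the placenta, and FLT4, or VEGFR3, is the receptor of VEGFC and marks lymphatic endothelium in the adult.

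The stem cell line was H1, an established line. The EC cultures received BMP4 (5 ng/ml) and Activin A (25 ng/ml) in E8 medium during the first 2 days, and VEGF and WNT over the next 3 days, so the EC cells had been given a ligand of the receptors measured here. The TB cultures were kept in E7, which is E8 without FGF2, together with BMP4 at 50 ng/ml and the inhibitor SB431542. Single cells were captured on the Fluidigm C1, a microfluidic device that turns the mRNA of each cell into amplified full-length cDNA, and images of the chambers were used in the earlier experiment to remove doublets and dead cells. The same stored cDNA, from 45 EC and 51 TB cells, went into the experiments EQ (equal cDNA input, equal pooling), EQ-Vary (equal input, pooling volumes varied on purpose) and EQ-75% (EQ repeated and sequenced less deeply). The unequalized libraries were not analysed here.

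After libraries with few counts, or with too many of them in their top 50 genes, were left out by the study's limits, 38 EC and 48 TB cells remained in EQ, 38 and 46 in EQ-Vary, and 39 and 50 in EQ-75%. In EQ the total count per cell ran from 471598 to 3966827 with a median of 2025166.5 in EC, and from 365557 to 3479268 with a median of 1968586 in TB. No separate cultures are named, and the 3 experiments reuse 1 set of cDNA, so each cell type in an experiment is 1 sample. For that reason no test was made, and SDs describe the spread between cells. Exact intervals for shares of cells take the cells as independent draws from 1 sample. Those for counts take reads as independent, which PCR reads without molecular identifiers are not. Neither kind covers the spread between samples. Levels are CPM, a cell's rounded counts brought to a total of 1000000.

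The labels were checked against cell type markers in EQ. The summed level of 15 endothelial markers ran from 533 to 7675 CPM in EC cells and from 2.29 to 100.1 CPM in TB cells, and PECAM1, CD34 and CDH5 were the most abundant of them in EC. The summed level of 14 trophoblast markers ran from 2409 to 12189 CPM in TB and from 62.1 to 3964 CPM in EC, and KRT18, KRT8 and VTCN1 were the most abundant of them in TB. The EC cells 15 and 43 had a higher sum of trophoblast than of endothelial markers, 3964 against 533 CPM and 1573 against 1476 CPM. Of 10 mesenchymal and smooth muscle genes, 7 were at least 2-fold higher in TB (26.2% of all genes were), led by LUM, a matrix proteoglycan. In EC 1 was at least 2-fold higher (19.2% of all genes), the collagen gene COL1A2, at 2.86-fold (named after its values were seen). Their median sum was 4407 CPM in TB and 821 CPM in EC. The part of these other markers in the levels below was not tested.

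Of the 9 genes, 7 had a mean level of at least 1 CPM over both cell types, and 6 of these were at least 2-fold higher in EC (KDR, FLT1, FLT4, NRP1, NRP2 and VEGFA). Of all 12351 genes at that level, 19.2% were at least 2-fold higher in EC. VEGFB was the 1 gene of the set at least 2-fold higher in TB, as were 26.2% of all genes. The counts of the set were 6 and 1 in EQ-Vary (19.4% and 26.3% of all genes) and 6 and 1 in EQ-75% (18.3% and 27.1%) as well. PGF was under the limit and VEGFC was listed at 0. KDR, FLT1, NRP1 and NRP2 had a count in every EC cell used from EQ (4 of 9 genes, against 19.9% of all genes), and KDR, FLT1 and NRP1 in every TB cell (3 of 9, against 19.4%). VEGFC had none in EC (1 of 9, against 19.7%), and FLT4 and VEGFC had none in TB (2 of 9, against 18.9%). Without EC cells 15 and 43 the counts of the set stayed at 6 and 1.

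**Figure D1:**
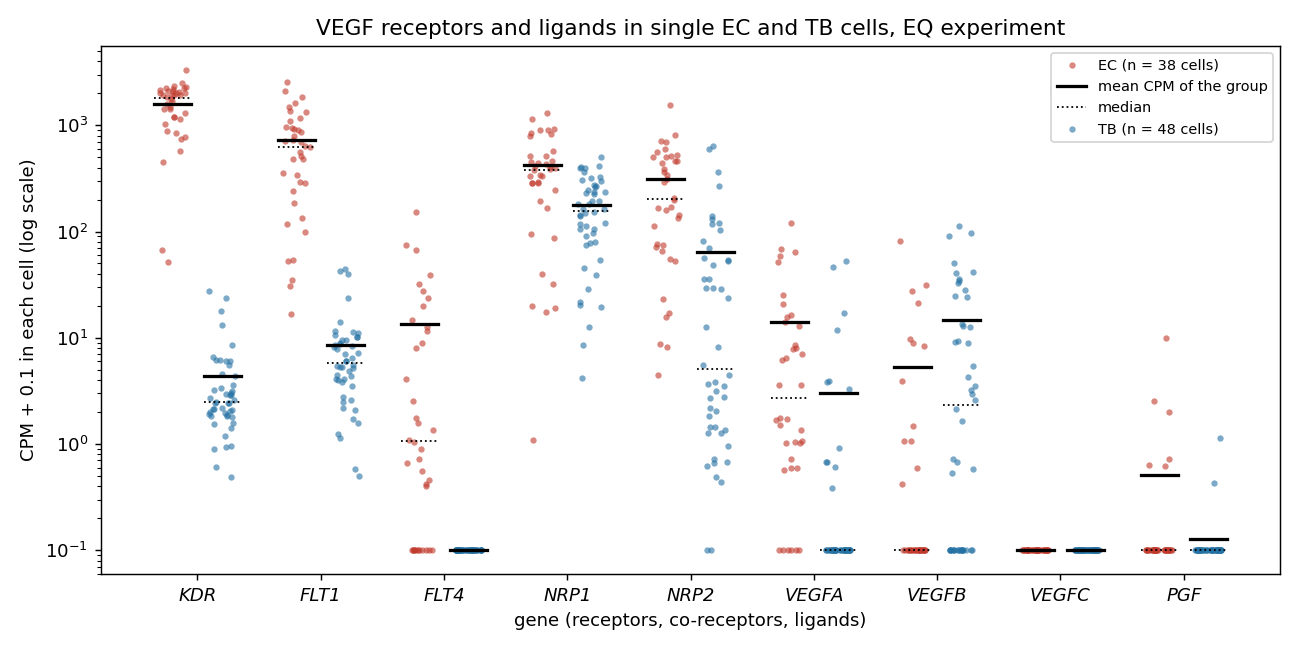
Level of each of the 9 genes in every cell used from EQ, as CPM plus 0.1 on a log axis, with 38 EC cells in red and 48 TB cells in blue; solid lines are means and dotted lines medians, also plus 0.1. KDR separates the cell types completely, NRP1 overlaps widely, and points at 0.1 are cells with no count, which make up every TB cell for FLT4 and every cell for VEGFC.

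The genome sequences before the start sites of KDR and FLT1 are shown because these receptors were abundant in EC and low in TB, and that of VEGFB because it was higher in TB. Each run is the 250 bases upstream of the start, 5′ to 3′ on the gene's strand, from RefSeq on GRCh38.p14. They lie at chr4:55125596-55125845 (minus strand, KDR), chr13:28495129-28495378 (minus strand, FLT1) and chr11:64234334-64234583 (plus strand, VEGFB). Capitals mark GGAA or its other strand TTCC (the core that ETS factors bind), TGACGTCA (the cAMP response element) and TATAAA or TTTATA (the TATA box).
KDR: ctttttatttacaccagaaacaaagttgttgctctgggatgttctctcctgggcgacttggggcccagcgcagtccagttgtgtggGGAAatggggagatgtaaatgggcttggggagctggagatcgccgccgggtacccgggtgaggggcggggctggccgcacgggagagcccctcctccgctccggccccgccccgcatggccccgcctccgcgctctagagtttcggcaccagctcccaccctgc
FLT1: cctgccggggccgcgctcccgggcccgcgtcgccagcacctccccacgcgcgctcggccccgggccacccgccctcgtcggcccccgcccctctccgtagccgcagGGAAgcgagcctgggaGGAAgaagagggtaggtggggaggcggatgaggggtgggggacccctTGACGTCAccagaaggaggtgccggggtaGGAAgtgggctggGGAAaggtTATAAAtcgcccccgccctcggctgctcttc
VEGFB: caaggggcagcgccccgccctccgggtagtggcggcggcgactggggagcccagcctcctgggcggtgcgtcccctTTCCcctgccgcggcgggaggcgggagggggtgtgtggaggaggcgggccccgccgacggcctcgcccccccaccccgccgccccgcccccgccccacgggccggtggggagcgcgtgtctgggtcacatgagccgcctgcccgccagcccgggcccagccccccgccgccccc
The FLT1 window held 4 ETS cores, a cAMP response element at position -81 and a TATA box at -31, counted back from the start site, while the KDR window held 1 ETS core, at -164, and neither of the other elements. The VEGFB window held 1 ETS core, at -174. Of 35116 promoters of the same length, 92.7% held an ETS core, so most promoters hold one, 1.65% the cAMP response element and 10.7% a TATA box.

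The box of the factor SP1 (GGGCGG on either strand) occurred 2 times before KDR, 3 times before FLT1 and 6 times before VEGFB. At least 1 was held by 42.6% of all promoters, and numbers of matches per promoter were not compared. Of the bases in the KDR, FLT1 and VEGFB windows, 65.2%, 73.2% and 82.8% were G or C. The VEGFB share was higher than in 98.7% of promoters. The core of the hypoxia-inducible factor HIF (ACGTG, on either strand) was not found in these 3 windows, and 18.5% of all promoters held it. The site of the blood and vessel factors of the GATA family (AGATAA, on either strand) was not found either, and 9.17% of all promoters held it. A match or its absence says nothing of binding. The entries for NRP2, VEGFC and PGF were also searched, with 1 ETS core for NRP2 and 2 for VEGFC. PGF had 3 before its first listed start and 2 before its second. FLT4, NRP1 and VEGFA had no entry.

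KDR (ENSG00000128052, GRCh38, chr4:55078481-55125595, 30 exons) was the most abundant gene of the set in EC. Its level ran from 51.3 to 3318 CPM with a median of 1806 CPM over 38 EC cells, and its mean of 1600.1 ± 710.1 CPM (SD) ranked 47 of 17492 genes. In 48 TB cells the level ran from 0.394 to 27.4 CPM with a median of 2.36 CPM. The cell types did not overlap: the lowest EC cell lay above the highest TB cell, which held for 1 of the 7 genes at 1 CPM or more and for 0.0567% of all genes at that level. The reverse, every TB cell above every EC cell, held for 0 of the 7 and 0.113% of all genes. EC cells 15 (51.3 CPM) and 34 (66.6 CPM) stood apart at the low end, the next EC cell being at 453 CPM and 30 of the 38 at 1000 CPM or more. Mean KDR was higher in EC than in TB by 375-fold (EQ), 427-fold (EQ-Vary) and 564-fold (EQ-75%). The size of this ratio rests on the small TB values.

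KDR had at least 1 count in 48 of 48 TB cells, but with a median of 5 counts and a range from 1 to 53. The mean TB level of KDR was 0.267% of that in EC, and the same share over the 11 endothelial markers at 50 CPM or more in EC ran from 0.142% to 2.94% with a median of 0.281%. The KDR share lay inside the range of these markers, which were kept for a high EC level, a choice that favours a low share. Whether the TB counts came from the cells themselves was not tested. TB cell 1 repeated at 17.8, 14.8 and 11.1 CPM in the 3 experiments, from 53, 49 and 22 counts. Over all TB cells KDR repeated loosely. Its Pearson correlation with EQ was 0.680 in EQ-Vary (46 cells) and 0.597 in EQ-75% (47 cells), and the Spearman correlation 0.507 and 0.569. The highest TB cell stood at 27.4 CPM in EQ (TB cell 40), 19.1 CPM in EQ-Vary and 18.3 CPM in EQ-75%. Thinned to 250000 counts per cell, an expected 52.5% of the 48 TB cells and 100% of the 38 EC cells would keep a KDR count. KDR CPM in TB fell with library size, with a Spearman correlation of -0.43 with the total count over 48 cells that share the count in the denominator, and -0.01 over the 38 EC cells.

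**Figure D2:**
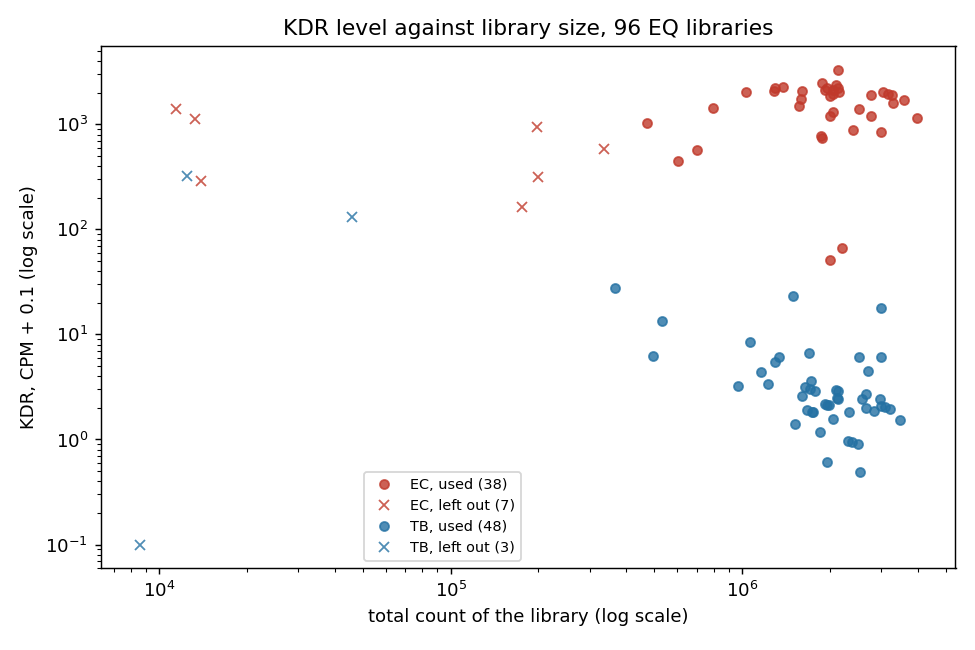
KDR level (CPM plus 0.1, log axis) against the total count of the library (log axis) for all 96 EQ libraries, circles for the 38 EC and 48 TB cells used and crosses for the 7 EC and 3 TB libraries left out. EC cells used stay between 51.3 and 3318 CPM, whereas 2 of the 3 TB libraries under 100000 counts rise to 131 and 322 CPM, above every TB cell used.

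FLT1 (ENSG00000102755, chr13:28300346-28495145, 30 exons) was the next receptor in level. In EC it ran from 16.6 to 2576 CPM with a median of 628 CPM, and its mean was 729 ± 619 CPM (SD, n = 38). In TB it ran from 0.400 to 43.96 CPM with a median of 5.65 CPM (n = 48). The groups nearly separated, with 35 of 38 EC cells above every TB cell and 4 TB cells at or above the lowest EC cell. The EC mean exceeded the TB mean by 86.3-fold (EQ), 81.2-fold (EQ-Vary) and 91.2-fold (EQ-75%). The TB mean of FLT1 was 1.16% of the EC mean, also within the range of the endothelial markers. Over 47 TB cells its Pearson correlation between EQ and EQ-75% was 0.838, and TB cell 17 stood at 43.96, 50.2 and 59.99 CPM in the 3 experiments. A value that is not whole means that RSEM split reads between genes that share sequence. In TB, 93.8% of the nonzero FLT1 values were not whole and 4.17% of those of KDR, in EC 97.4% for both, and over all genes and cells 63.8%. How many of the few FLT1 counts in TB came from shared reads was not tested.

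FLT4 (ENSG00000037280, chr5:180601506-180649624, 30 exons), the VEGFC receptor, was present in a minority of EC cells at more than a trace. It ran from 0 to 154 CPM with a median of 0.971 CPM, and 27 of 38 EC cells (71.1%, exact 95% interval 54.1% to 84.6%) had a count. Only 15 EC cells had 5 counts or more, 11 reached 10 CPM, and the 3 highest cells held 58.2% of the summed CPM. None of the TB cells used had a FLT4 count in any experiment, 0 of 48 cells in EQ, with an exact 95% interval up to 7.40%. TB library 4 of EQ, left out for its low total count, held 1 FLT4 count. From counts summed over cells, and against a floor of 3 counts over the TB cells used, FLT4 per total count was higher in EC by at least 299.6-fold (EQ), 245-fold (EQ-Vary) and 221-fold (EQ-75%). EC cell 23 had the highest FLT4 level in each experiment, at 154, 149.7 and 140.3 CPM.

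Per length of the canonical transcript, mean KDR in EC was 274 CPM per kb, followed by FLT1 at 102, NRP1 at 75.1, NRP2 at 46.7, VEGFA at 3.88, VEGFB at 2.86, FLT4 at 2.30 and PGF at 0.239 CPM per kb. KDR was above FLT1 per kb in 36 of 38 EC cells. The gaps between FLT1, NRP1 and NRP2 were smaller than the SD of FLT1 between cells (86.9 CPM per kb), and those among VEGFA, VEGFB and FLT4 were smaller than the SD of each of these 3 genes. In TB the order was led by NRP1 at 31.8 CPM per kb, with NRP2 at 9.67 and VEGFB at 8.14, and FLT1, VEGFA and KDR followed at 1.18, 0.813 and 0.732 CPM per kb. These levels depend on the length used. Per length of the union of all annotated exons, FLT1, NRP1 and NRP2 in EC were at 60.9, 36.8 and 30.2 CPM per kb and the order of the genes in EC was the same. In TB that length gave NRP1 15.6, VEGFB 7.69, NRP2 6.25, VEGFA 0.778, KDR 0.732 and FLT1 0.706 CPM per kb, so the order of NRP2 and VEGFB, and that of FLT1, VEGFA and KDR, changed with it.

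NRP1 (ENSG00000099250, chr10:33177492-33336262, 17 exons) is a co-receptor for VEGFA that also binds class 3 semaphorins. It was abundant in both cell types. In EC it ran from 0.996 to 1313 CPM with a median of 383 CPM and a mean of 424 ± 328 CPM (SD, n = 38), and in TB from 4.05 to 499 CPM with a median of 157 CPM and a mean of 179 ± 127 CPM (SD, n = 48). The groups overlapped widely, with all 48 TB cells at or above the lowest EC cell and 11 of 38 EC cells above every TB cell. An EC cell exceeded a TB cell in 74.6% of all pairs. The EC mean was higher by 2.36-fold (EQ), 2.32-fold (EQ-Vary) and 2.35-fold (EQ-75%), and the difference in EQ, 245 CPM, was smaller than the SD between EC cells. The lowest EC value belonged to EC cell 15, which also had the lowest KDR.

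NRP2 (ENSG00000118257, chr2:205681990-205798133, 17 exons) is a co-receptor for VEGFC and VEGFA. In EC it ran from 4.36 to 1562 CPM with a median of 202 CPM and a mean of 310.5 ± 311 CPM (SD, n = 38). In TB it ran from 0 to 633 CPM with a median of 4.93 CPM and a mean of 64.2 ± 136 CPM (SD, n = 48). TB cells were spread unevenly: 26 of 48 were below 10 CPM, 13 lay between 10 and 100 CPM, and 9 lay above. The 3 highest TB cells, among them cells 14 and 47, carried 51.8% of the summed CPM. The ratio of means was 4.83 (EQ), 4.66 (EQ-Vary) and 5.06 (EQ-75%), while the ratio of medians was larger, at 5.36 on the log2 scale against 2.27 for the means.

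Receptors and co-receptors were then counted together within cells. At 10 CPM or more, 34 of 38 EC cells had KDR, FLT1, NRP1 and NRP2 together, against 1 of 48 TB cells. NRP1 without NRP2 was found in 25 of 48 TB cells and 3 of 38 EC cells. Per kb, NRP1 was above NRP2 in 42 of 48 TB cells and 23 of 38 EC cells. These are counts of cells from 1 sample per type.

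**Figure D3:**
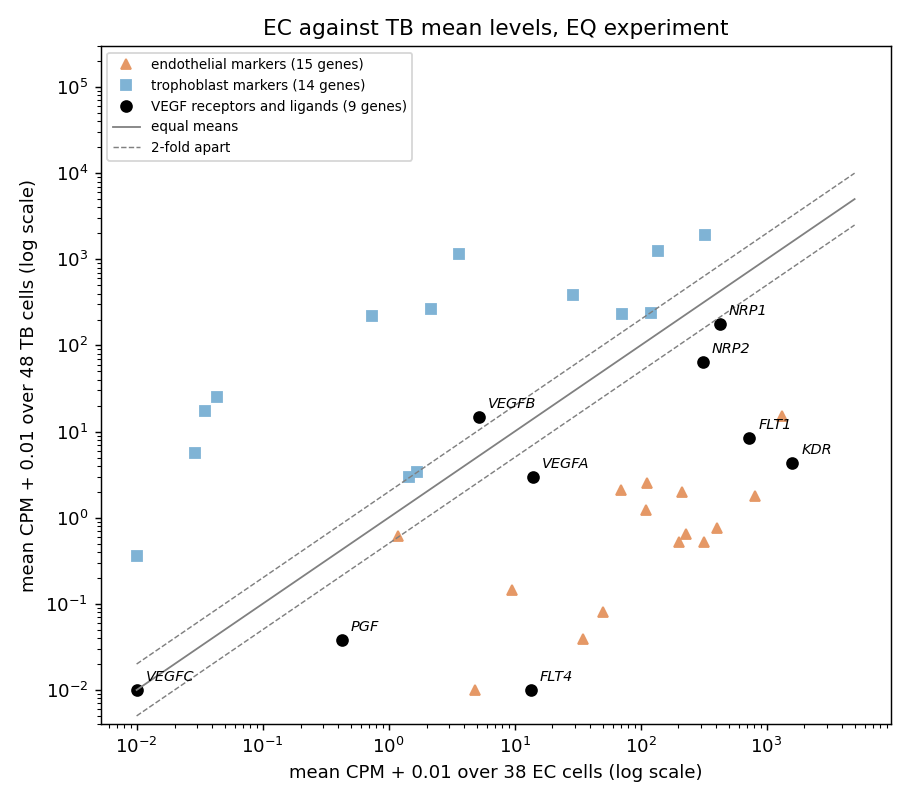
Mean CPM over 38 EC cells against mean CPM over 48 TB cells in EQ, both plus 0.01 on log axes, for the 9 VEGF genes (black), 15 endothelial markers (triangles) and 14 trophoblast markers (squares); the solid line marks equal means and dashed lines a 2-fold difference. KDR and FLT1 lie among the endothelial markers, NRP1 (2.36-fold) lies next to the 2-fold line, and VEGFB is above it on the TB side.

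The ligands were low in both cell types. VEGFA (ENSG00000112715, chr6:43770184-43786487, 8 exons), the main ligand of KDR, ran from 0 to 121 CPM with a median of 2.58 CPM over 38 EC cells, and from 0 to 52.2 CPM with a median of 0 over 48 TB cells. A VEGFA count was found in 32 of 38 EC cells (84.2%, exact 95% interval 68.7% to 94.0%) and 12 of 48 TB cells (25.0%, 13.6% to 39.6%). Thinned to 250000 counts, an expected 53.6% of EC and 13.5% of TB cells would keep a count. Mean VEGFA was 13.996 ± 25.7 CPM in EC and 2.93 ± 10.2 CPM in TB (SD), a ratio of 4.77 (EQ), against 3.74 (EQ-Vary) and 2.63 (EQ-75%). The SDs were larger than the means, and EC cells at 10 CPM or more numbered 11 of 38. All of these also had KDR at that level, as did all 38 EC cells. The ratio was 7.42 without TB cell 29 and 3.78 without EC cell 29. EC cell 29, the highest in EQ, was left out of EQ-75%. Over the 37 EC cells used in both, mean VEGFA in EQ was 11.1 CPM. The ratios of EQ and EQ-75% thus rest in part on different cells.

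VEGFB (ENSG00000173511, chr11:64234584-64239264, 7 exons), a ligand of FLT1 alone among the receptor kinases, went the other way. In EC it ran from 0 to 82.0 CPM with a median of 0, and 13 of 38 cells (34.2%, 19.6% to 51.4%) had a count. In TB it ran from 0 to 114 CPM with a median of 2.25 CPM, and 30 of 48 cells (62.5%, 47.4% to 76.0%) had a count. Mean VEGFB was 14.7 ± 26.2 CPM in TB and 5.16 ± 14.8 CPM in EC (SD), higher in TB by 2.84-fold (EQ), 3.01-fold (EQ-Vary) and 3.47-fold (EQ-75%). The TB excess was 4.76-fold without EC cell 25, and from summed counts, in which deeper cells weigh more, the log2 ratio was -0.96 in place of -1.51, just under 2-fold. VEGFA and VEGFB at 10 CPM or more occurred together in 0 of 38 EC cells and 1 of 48 TB cells. The cells at that level for each were 11 and 4 in EC and 4 and 15 in TB, too few to tell whether the ligands avoid each other. At 1 count or more, 12 EC cells had both, 20 VEGFA only and 1 VEGFB only, with a Spearman correlation of 0.01.

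PGF (ENSG00000119630, chr14:74941834-74955626), the placental ligand of FLT1, was near the detection limit. It had 35 counts in all over 6 of 38 EC cells, with the highest cell at 9.76 CPM, and 2 counts over 2 of 48 TB cells. The ratio of summed counts was 21.6 with an exact 95% interval of 5.54 to 185, which takes reads as independent. EC cell 27 held 21 of the 35 counts, and without it the ratio of mean CPM was 5.73 in place of 14.6. VEGFC (ENSG00000150630, chr4:176683538-176792922) was listed at 0 in all 288 libraries, as were 12.3% of all genes. In EQ, the exact 95% interval for the share of cells with a count reached 9.25% for 0 of 38 EC cells and 7.40% for 0 of 48 TB cells.

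**Figure D4:**
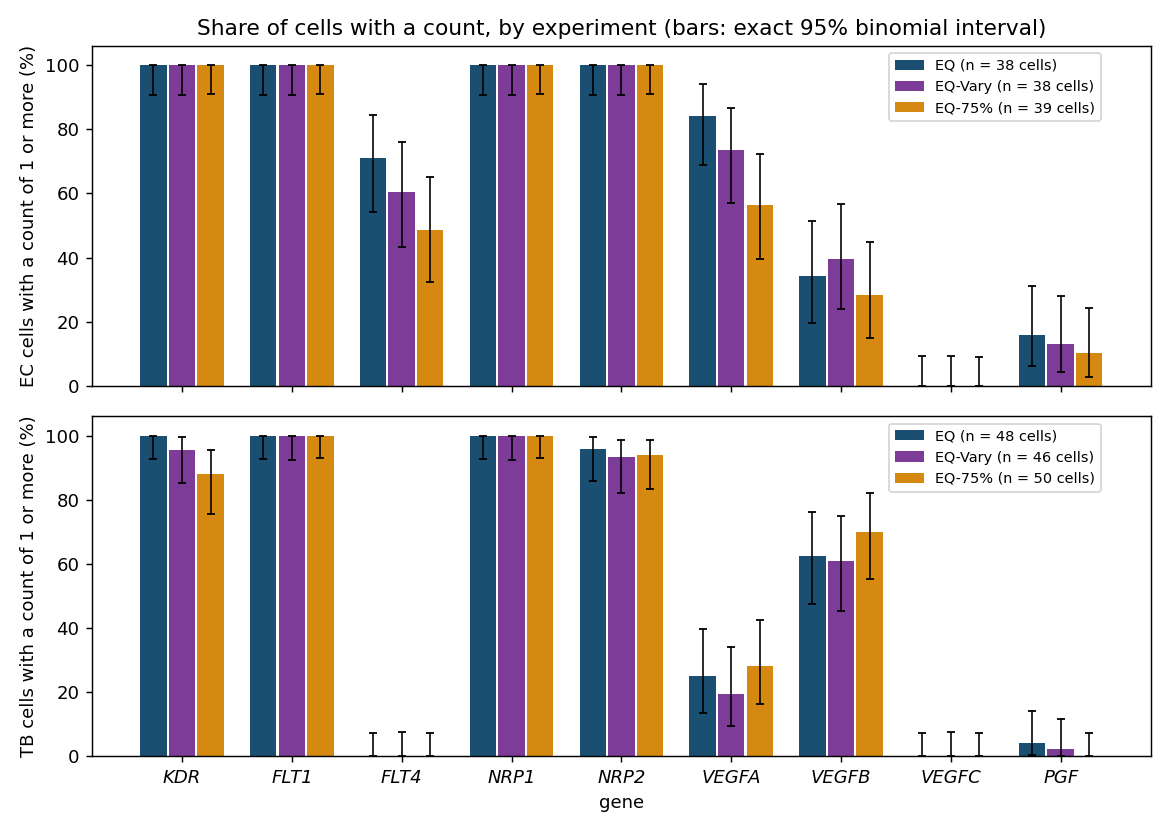
Share (%) of cells with 1 count or more for each gene in EC (top) and TB (bottom), in EQ, EQ-Vary and EQ-75%. The exact 95% binomial intervals take the cells as independent draws from 1 sample. KDR, FLT1, NRP1 and NRP2 were at 100% in EC in each experiment, while the shares for FLT4 fell from 71.1% in EQ to 48.7% in EQ-75% and for VEGFA from 84.2% to 56.4%.

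The experiments repeat the library preparation or pooling on the same cDNA, so the steadiness of each gene could be read cell by cell. The receptors repeated closely in EC. Between EQ and EQ-75%, over the 37 EC cells used in both, the mean log2 difference (EQ-75% minus EQ, log2 of CPM + 1) was -0.02 ± 0.12 (SD) for KDR, 0.00 ± 0.24 for FLT1, -0.11 ± 0.33 for NRP1 and -0.14 ± 0.36 for NRP2. KDR was higher in EQ-75% in 18 cells and lower in 19, FLT1 higher in 24 and lower in 13, NRP1 higher in 9 and lower in 28, and NRP2 higher in 17 and lower in 20. For KDR the Pearson correlation over cells between the experiments was 0.996. For all 37 EC cells used in all experiments, KDR, FLT1, NRP1 and NRP2 had a count in every experiment.

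The low genes repeated less well. A FLT4 count was found in all 3 experiments in 14 of 37 EC cells, in 1 or 2 of them in 17 cells and in none in 6. For VEGFB this was 8 of 37 EC cells in all 3 experiments and 12 in only 1 or 2. VEGFB in EC was the 1 gene of the set whose mean was at least 1.5-fold lower in EQ-75% than in EQ, at 5.30 CPM in EQ and 2.26 CPM in EQ-75% over 37 cells, a ratio of 0.425. Of 11421 genes, 3.72% were at least that much lower in EC and 0.683% at least that much higher, where the set had 0 genes. Over the 37 cells VEGFB was lower in EQ-75% in 13, higher in 2 and equal in 22. Over all EC cells used, 38 in EQ and 39 in EQ-75%, mean VEGFB was 5.16 and 3.66 CPM, less than 1.5-fold apart. Mean VEGFA was 13.996 and 7.46 CPM over these cells, more than 1.5-fold apart. EC cell 29, at 121 CPM of VEGFA in EQ, was left out of EQ-75%. Which gene passed 1.5-fold thus depended on the cells compared.

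VEGFA in EC was lower in EQ-75% in 27 of 37 cells and higher in 5, with a mean of 11.1 CPM in EQ and 7.87 CPM in EQ-75% and a mean log2 difference of -0.57 ± 0.73 (SD). This difference is smaller than its spread between cells. In TB, over 47 cells, no gene of the set at 1 CPM or more was at least 1.5-fold lower in EQ-75%, against 1.37% of 11855 genes. None was at least 1.5-fold higher, against 0.245%. Mean KDR in TB was 4.30 CPM in EQ and 2.88 CPM in EQ-75%, 1.49-fold lower and so at the limit. The fall was 1.57-fold without TB cell 7 and 1.31-fold without TB cell 40. Between EQ-Vary and EQ no gene of the set at 1 CPM or more in EC or TB moved by 1.5-fold, against 0.2% lower and 0.122% higher in EC and 0.118% and 0.0505% in TB.

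**Figure D5:**
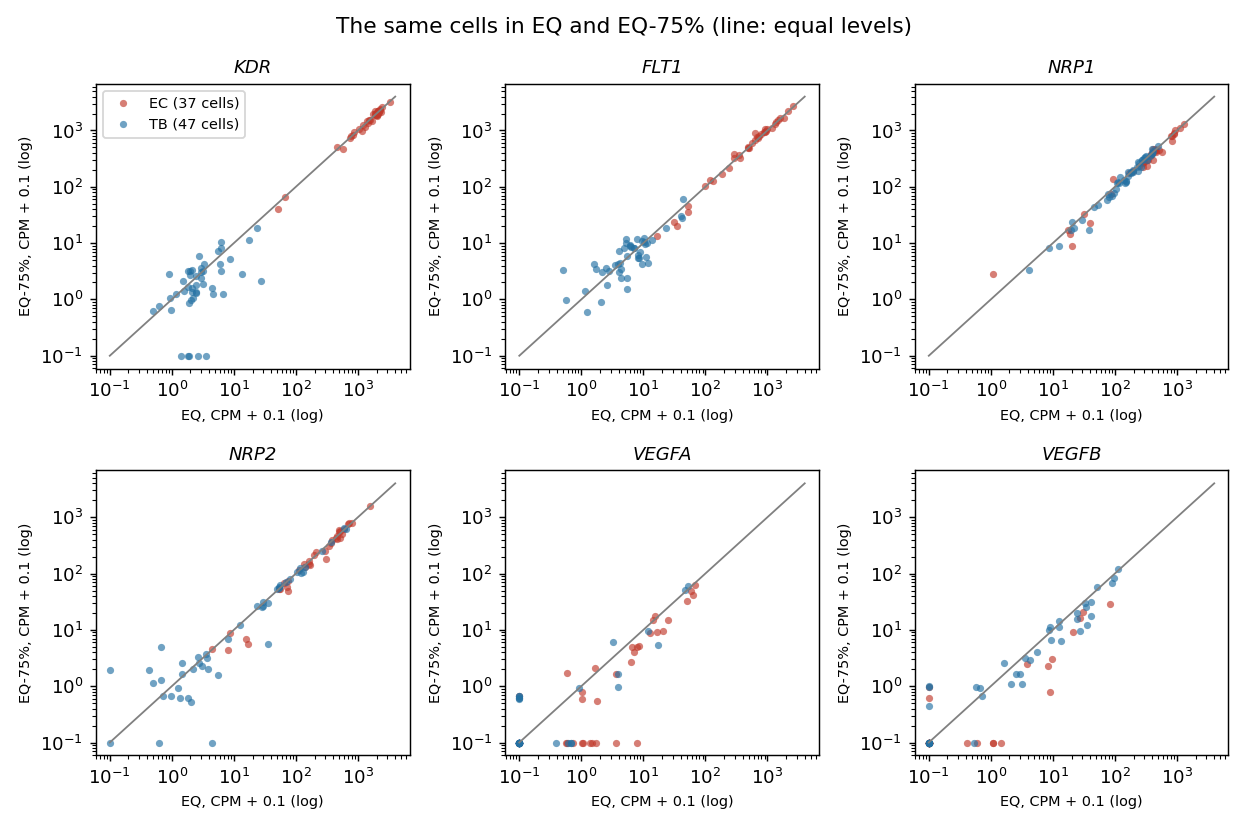
Level in EQ-75% against level in EQ (CPM plus 0.1, log axes) of 6 genes in the same cells, 37 EC in red and 47 TB in blue; the line marks equal levels. KDR, FLT1, NRP1 and NRP2 in EC follow the line, VEGFB in EC lies under it (ratio of means 0.425), and KDR in TB scatters around a few CPM.

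Between EC cells the Spearman correlations of the members in EQ ran from -0.304 (FLT1 and PGF) to 0.423 (FLT1 and VEGFA). The SD was 0.444 of the mean for KDR, 0.774 for NRP1, 0.850 for FLT1 and 1.002 for NRP2. Over 38 EC cells the Spearman correlation was 0.29 between KDR and FLT1, 0.34 between FLT1 and NRP1, 0.42 between FLT1 and VEGFA and -0.26 between NRP1 and NRP2. Each pair shares the total count of its library, and with the log10 total count held fixed the values were 0.29, 0.33, 0.42 and -0.26. The FLT1 and VEGFA value was 0.12 in EQ-75%. That of FLT1 and PGF was -0.36 in EQ-Vary and -0.36 in EQ-75%, and in EQ it rests on PGF counts in 6 of 38 cells. FLT1 followed the summed endothelial markers at 0.43, KDR at 0.32 and NRP1 at 0.31, as descriptions over cells of 1 sample. Over 48 TB cells the same correlations were 0.49 for FLT1, 0.38 for KDR and -0.34 for NRP1, so those of FLT1 and KDR were not particular to EC.

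The genes whose levels were most like those of a member over the EC cells were sought among 8899 genes detected in at least 50% of them. Here and in TB below, the highest of so many values over so few cells can be large for unrelated genes. Whether any value exceeds that was not tested. EQ-Vary and EQ-75% reuse the same cells, so their values are no separate support. For FLT1 they were LPL, a lipase at the vessel wall (Spearman 0.67), PRCP, a carboxypeptidase (0.66), and ARHGEF7, an exchange factor for small GTPases (0.65). These values were 0.66, 0.66 and 0.65 in EQ-Vary and 0.64, 0.67 and 0.62 in EQ-75%. The FLT1 values of LPL and PRCP came with 73.7% and 94.7% of nonzero EC values that were not whole. For KDR the nearest genes were OSBP, SMTNL1 and TOMM20 at 0.55, 0.55 and 0.54, with 0.42, 0.40 and 0.45 in EQ-75%. NRP1 was nearest to STRA6 (0.60), TMEM185A (0.60) and ADORA2A (0.58), of which STRA6 was at 0.37 in EQ-75%. NRP2 was nearest to GBP4 (0.60), PLEKHA3 (0.57) and NEU3 (0.53). VEGFA was nearest to NUP205 (0.70, with 0.54 in EQ-Vary and 0.41 in EQ-75%) and to CDC42P6 and CDC42 (0.64 and 0.61), which share sequence and for which every nonzero value was not a whole number, so those 2 are uncertain.

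In TB, over 48 cells and 9483 genes, the nearest genes to NRP1 were SRP9 (0.52), MRPL14 (0.49) and RRAS2 (0.48), and to NRP2 RTF1 (0.61), PIGP (0.58) and PLEKHG6 (0.54), of which RRAS2 with NRP1 was at 0.31 in EQ-75% and PLEKHG6 at 0.23 in EQ-Vary. FLT1 in TB was nearest to PNMA2 (0.71), GP2 (0.70) and CCL5 (0.69), and 97.9% of the nonzero TB values of each of those 3 genes were not whole, against 63.8% over all genes. Their values were 0.60, 0.50 and 0.60 in EQ-Vary. KDR in TB was nearest to LAX1 (0.51), FBXO3 (0.51) and RTCA (0.51), of which LAX1 was at 0.10 and FBXO3 at 0.22 in EQ-Vary.

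Partners and targets of the receptors were described with lists of known genes, against a median log2 ratio of EC over TB of -0.06 over 12151 genes. Among 10 receptor partners and regulators, 5 were at least 2-fold higher in EC (19.2% of all genes were) and 2 in TB (26.2% of all genes), with a median log2 ratio of 0.94. PLXND1, a semaphorin receptor that works with neuropilins, had a mean of 179.6 ± 149 CPM in EC and 1.43 ± 6.65 CPM in TB. PTPRB, the phosphatase that acts on KDR and TEK, had 215 ± 281 and 8.63 ± 4.36 CPM. EFNB2 and DAB2, both tied to uptake of the receptors, were 3.09-fold and 3.58-fold higher in EC. GIPC1, an adaptor that binds NRP1, was 3.27-fold higher in TB.

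Among 34 signal transducers, 10 were at least 2-fold higher in EC, against 19.2% of all genes, and 9 in TB, or 26.5% of the list against 26.2% of all genes. The median log2 ratio was 0.05. NFATC1 (15.1 against 0.0272 CPM) and PRKCB (18.7 against 0.512 CPM) stood highest toward EC, with RAC2 and MAP2K1 at 5.62-fold and 4.36-fold. PLA2G4A (31.2 against 0.171 CPM), BAD, MAP2K2 and SPHK1 were higher in TB, by 182-fold, 17.0-fold, 5.56-fold and 5.16-fold.

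Among 16 genes known to be induced by VEGF in endothelium, 8 were at least 2-fold higher in EC (19.2% of all genes) and 4 in TB (26.2% of all genes), with a median log2 ratio of 1.26. DLL4, the Notch ligand of sprouting tip cells, had 93.6 ± 121 CPM in EC and 0.151 ± 0.288 CPM in TB, and APLN, the apelin precursor, 81.0 ± 82.3 and 0.0957 ± 0.194 CPM. CXCR4 (48.8 against 0.123 CPM) and HLX (28.9 against 0.226 CPM) were also higher in EC. EGR1, an immediate early transcription factor, went against the list's name, with 1018 ± 545 CPM in TB and 46.7 ± 175 CPM in EC, and RCAN1, an inhibitor of calcineurin, was 3.53-fold higher in TB.

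Among 14 genes of the hypoxia and HIF axis, which regulates VEGFA in many tissues, 5 were at least 2-fold higher in EC (19.2% of all genes) and 2 in TB (26.2% of all genes), with a median log2 ratio of 0.63. EGLN3, a HIF prolyl hydroxylase, had 81.8 ± 117 CPM in EC and 0.398 ± 1.25 CPM in TB. LDHA, the lactate dehydrogenase subunit, had 2135 ± 1462 and 228 ± 296 CPM, and SLC2A1, the glucose transporter, and ANKRD37 were 5.98-fold and 6.03-fold higher in EC. EPAS1, which encodes HIF-2 alpha, had 725 ± 299 CPM in TB and 21.6 ± 72.7 CPM in EC, and ARNT was 2.01-fold higher in TB.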

How the data were processed

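RNA-seq gave 288 libraries, each from 1 cell, with expected counts for 17492 genes that code for protein. The authors trimmed reads to 51 bp, mapped them with Bowtie 1.2.3 to GRCh38 protein-coding genes allowing 2 mismatches, estimated counts with RSEM 1.2.31, and deposited these expected counts without normalization. Strand use in counting is not given in the sources used here, and NRP1, NRP2 and VEGFA have exons overlapping a long noncoding RNA on the opposite strand.

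Counts were rounded and scaled to CPM. The study's limits were used to leave out cells: a total count whose log10 was below 5.4, or over 31% of the counts in the top 50 genes. Groups came from the labels, and 0 sample columns were left unused. Doublets were not called. Comparisons used ratios of mean CPM among genes with a mean of at least 1 CPM, detection at 1 count with exact 95% (Clopper-Pearson) intervals, the expected detection after thinning to 250000 counts, and within-cell differences of log2(CPM + 1). The study states that 1 set of cDNA was used in all experiments. Deviations of same-numbered cells from their type mean correlated at 0.851 or more in every pair, so cells were paired. With 1 sample per group there was no test.

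Alternatives included edgeR 4.0.16 (TMM) and DESeq2 1.42.0 size factors in R 4.3.3. Other steps used Python 3.11.15 with scipy 1.17.1, pandas 2.3.3 and numpy 2.4.6, figures matplotlib 3.10.9, and the ratio and thinning steps were tested on simulated data. Gene coordinates and lengths were from GENCODE 44. The 9 genes, the lists and the markers were chosen with earlier results of these data known. Named genes were all 9 members, at most the 4 largest ratios in each direction of each VEGF pathway list (at least 2-fold apart and 10 CPM in the higher type), the 3 genes most like each member detected in 80% of cells, and the 3 most abundant markers of the cell type lists. A planned rank of each gene's spread among genes of like level was not used. Pluripotency, blood and cardiac marker lists were also summed. In EC and TB their median sums were 413 and 413 CPM, 17.0 and 13.6 CPM, and 0.477 and 52.3 CPM.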

Additional observations from a re-analysis of the deposited data

Results flagged for a closer look

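The near-empty TB libraries, left out for their size, held when pooled a higher KDR level than the TB cells used. Over the 3 TB libraries of EQ with under 100000 counts, the pooled KDR level was 149.7 CPM (10 counts of 66821, exact 95% interval 71.8 to 275 CPM), against a mean of 4.27 CPM in the 48 TB cells used. The pooled level was 272 CPM in EQ-Vary (7 counts over 3 libraries, 109 to 561 CPM), where 2 larger TB libraries that were left out pooled to 10.8 CPM (4 counts, 2.94 to 27.7 CPM), and 158 CPM in EQ-75% (1 count in 1 library, 4.01 to 882 CPM). The numbers of counts were small in both kinds of library, 0 to 6 in the near-empty TB libraries of EQ and 1 to 53 in the TB cells used. The summed endothelial markers were also high in the near-empty TB libraries of EQ, at 371, 2010 and 583 CPM, against a highest value of 100.1 CPM in the TB cells used, while their trophoblast markers stood at 4905 to 5653 CPM. These libraries are outside the comparisons above, and what gave them these counts was not tested.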

How the results depend on the processing

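Of 324 alternative values, 293 stayed within a limit and 31 moved by more. The limit was the spread between cells, the exact interval for detection, 1.5-fold for numbers of genes, or a width set by the number of cells for correlations. A reversal was called only for EC over TB ratios of at least 2-fold, and 0 of these reversed. Small differences between experiments could change sign, as for KDR in EC (EQ-75% minus EQ, -0.02 paired and 0.02 unpaired). In the log2 ratio of EC over TB, KDR was 6.82 with all cells used in place of 8.55, NRP2 was 5.36 with medians in place of means, and PGF, at 3.87, was 6.15 with all cells, 4.43 from summed counts, 0.46 with 1 CPM added and 6.27 in EQ-Vary. The median of EC over TB ratios could not be formed for VEGFA, VEGFB and PGF, because a median was 0, or for FLT4 and VEGFC, which had no TB count. Genes at least 2-fold higher in EC numbered 1231 with medians and 1486 at a mean of 10 CPM, against 2372, and those higher in TB numbered 1892 at 10 CPM, against 3242. Of the 9 genes, 6 were 2-fold higher in EC and 0 in TB with summed counts, against 6 and 1. With a minimum of 10 CPM the numbers were 4 and 0, as FLT4, VEGFA and VEGFB fell below that minimum. With medians they were 5 and 1. Under DESeq2 size factors the median log2 ratio of all genes was 0.19, under TMM 0.06 and under total counts -0.06, and each of the 7 genes with counts in both cell types kept its direction under all of them. Differences between experiments taken with no replicate block, that is without pairing the cells, kept their size to within the spread between cells, for example -0.40 for KDR in TB and -0.20 for VEGFB in EC (paired -0.40 and -0.34, EQ-75% minus EQ). Detection in EC of FLT4 was 39.5% and of VEGFA 52.6% when 5 counts were required. Depth limits the low genes, whose detection falls when cells are thinned, and the causes of these moves were not tested.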
